A study of Homo sapiens with 12 samples.

Results

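This report describes the mRNA levels of 9 genes of the YAP/TEAD pathway in 501Mel cells: the coactivators YAP1 and WWTR1 (the gene of TAZ), the DNA-binding factors TEAD1 and TEAD4, and the target genes CTGF, CYR61, ANKRD1, AMOTL2 and THBS1. They were chosen by name from general knowledge, with earlier results of these data known, and all 9 are rows among the 56638 gene rows of the count table. The table uses older symbols for CTGF, now CCN2, and CYR61, now CCN1. The 501Mel line derives from a human melanoma and carries a mutated BRAF kinase. Cultures received DMSO (vehicle), 1 µM vemurafenib (Vem), 10 nM TCDD, 5 µM resveratrol (RSV), RSV with Vem (RSV+Vem) or RSV with TCDD (RSV+TCDD) for 48 h, and each of the 6 groups had 2 libraries, 12 in all. Vem is a BRAF inhibitor, which the study also reports to be a ligand of the aryl hydrocarbon receptor AhR. TCDD (a dioxin) is a strong activator of AhR, and RSV was used as an antagonist of that receptor. For RSV+TCDD the treatment protocol gives 10 nM TCDD and the name of the samples gives 1 nM, so its TCDD dose is uncertain. All libraries came from a single cell line, and nothing in the labels says that the libraries of a group came from separate cultures, so p-values measure the spread between these libraries, which may be technical.

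In the Hippo pathway, the kinases encoded by STK3 and STK4 activate the kinases LATS1 and LATS2, which phosphorylate YAP and TAZ and keep them out of the nucleus. Unphosphorylated YAP and TAZ bind TEAD proteins, which hold the complex on DNA, and switch on genes such as CTGF, CYR61 and ANKRD1. AMOTL2 is both a target and a brake, since angiomotin proteins bind YAP and hold it in the cytoplasm. In melanoma, TEAD activity has been associated with the invasive, poorly pigmented cell state. Because the pathway acts mainly through phosphorylation and localization, mRNA levels of YAP1 and the TEAD genes do not measure its activity.

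RefSeq promoters (GRCh38.p14) covered 6 of the 9 genes with 8 windows, each the 250 bases before an annotated start. The windows of the 3 target genes that were both detected and covered are shown, since the treatments moved these genes, 5′ to 3′ on the strand of the gene. Capitals mark the TEAD core motif GGAATG, or its reverse complement. CTGF is at chr6:131951373-131951622 (minus strand), ANKRD1 at chr10:90921088-90921337 (minus strand) and AMOTL2, at one of its 2 starts, at chr3:134374448-134374697 (minus strand).
CTGF: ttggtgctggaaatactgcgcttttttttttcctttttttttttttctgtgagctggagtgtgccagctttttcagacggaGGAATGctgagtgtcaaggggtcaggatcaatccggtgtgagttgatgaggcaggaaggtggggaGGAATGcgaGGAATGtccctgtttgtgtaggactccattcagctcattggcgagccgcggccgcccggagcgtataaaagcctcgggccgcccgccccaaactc
ANKRD1: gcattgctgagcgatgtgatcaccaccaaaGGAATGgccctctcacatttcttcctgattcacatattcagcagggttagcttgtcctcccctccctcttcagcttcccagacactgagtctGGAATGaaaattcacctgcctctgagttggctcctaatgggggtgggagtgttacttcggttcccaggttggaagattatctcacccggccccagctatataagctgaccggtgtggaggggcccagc
AMOTL2: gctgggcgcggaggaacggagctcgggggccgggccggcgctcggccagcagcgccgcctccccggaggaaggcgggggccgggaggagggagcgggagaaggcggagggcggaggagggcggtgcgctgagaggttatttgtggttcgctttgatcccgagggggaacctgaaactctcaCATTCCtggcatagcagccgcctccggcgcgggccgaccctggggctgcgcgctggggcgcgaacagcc

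CTGF had 3 TEAD cores, which began 169, 104 and 95 bases before the start, and the nearest pair were separated by only a few bases. ANKRD1 had 2, which began 220 and 128 bases before the start, with a match to the AP-1 motif TGANTCA between them. AMOTL2 had 1, on the opposite strand, 69 bases before the start, and its other window had none. YAP1 and THBS1 had 1 core each, and both WWTR1 windows had none. The AhR core GCGTG, searched because AhR ligands were used, was absent from the CTGF, ANKRD1 and AMOTL2 windows and was found once each in THBS1 and in 1 WWTR1 window. Searched on both strands, 11.9% of all 35116 RefSeq windows of this length held a TEAD core, 0.94% held at least 2 and 0.0826% held at least 3, and 6.57% held the AP-1 motif and 32.2% the AhR core. The serum response factor CArG box was in no member window and in 1.16% of all windows. No match overlapped another in these windows. A match describes letters and not a bound site. CYR61, TEAD1 and TEAD4 have no promoter shown.

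**Figure D1:**
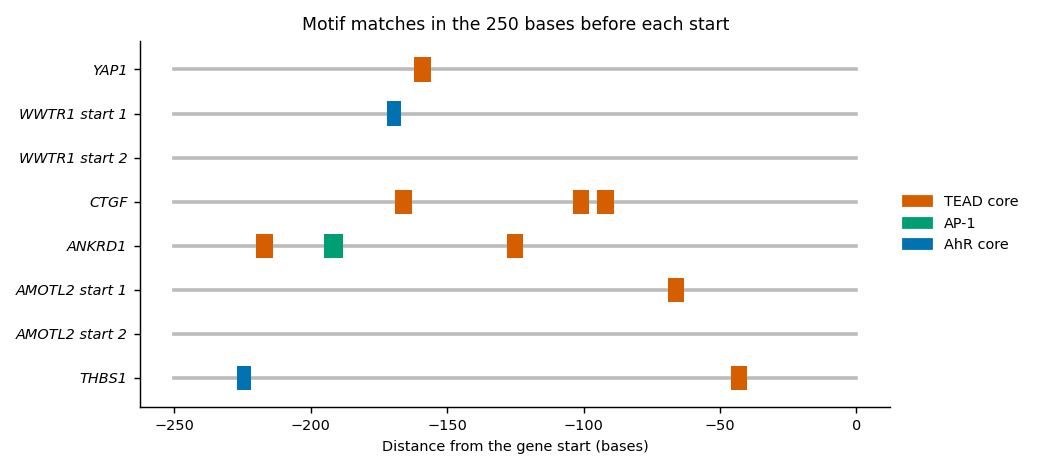
Matches to the TEAD core GGAATG (orange), the AP-1 motif TGANTCA (green) and the AhR core GCGTG (blue), on either strand, in the 250 bases before 8 starts of 6 genes, with the distance from the start in bases on the x axis. CTGF held 3 TEAD cores, ANKRD1 held 2, and YAP1, AMOTL2 (start 1) and THBS1 held 1 each.

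On GRCh37, the build to which the reads were aligned, YAP1 spans chr11:101981178-102104155, WWTR1 chr3:149235022-149454501, TEAD1 chr11:12695968-12966284 and TEAD4 chr12:3068496-3149842. CTGF spans chr6:132269316-132272512, CYR61 chr1:86046444-86050272, ANKRD1 chr10:92671853-92680844, AMOTL2 chr3:134074189-134094321 and THBS1 chr15:39873280-39891667. Counts cover the exons of each gene as a whole, so isoforms were not separated.

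The libraries held between 8378655 and 25076925 counts on genes, and 16080 genes passed the filter on low counts, 8 of the 9 genes among them. THBS1 did not pass. ANKRD1 passed only through groups with RSV, where its counts were highest, so its place among the tested genes depends on those groups in every comparison. RSV+Vem replicate 2 was the library with the fewest counts. RNA integrity numbers were 8.7 and 8.6 in the RSV+Vem libraries and from 9.1 to 9.7 in all others. All 7 melanocytic markers were abundant, with a summed level between 48206 and 51552 CPM in the Vem libraries, 11108 and 12304 in the RSV libraries and 16504 and 27187 in the other 4 groups. The 13 markers of fibroblasts, keratinocytes, endothelium and leukocytes summed to between 6.92 and 16.5 CPM outside the TCDD group and to 31.8 and 39.8 CPM in it. Only COL1A1 and LUM of these 13 passed the filter, and KRT1 and PECAM1 were at 0 counts in every library. LUM alone reached 38.2 CPM, in the TCDD group, while no other marker of the 13 exceeded 2.59 CPM. Both sums move with the treatments compared here, and their part in the results was not tested. In RNA from a whole culture, a change in every cell and a change in the share of cells that express a gene cannot be told apart.

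Levels are given as CPM, counts scaled to the size of each library with TMM factors, which set each gene against the bulk of the other genes. YAP1 stood at 113 and 107 CPM in the vehicle libraries, 73.3 and 68.4 with Vem, 89.4 and 85.7 with TCDD, 85.7 and 96.1 with RSV, 79.8 and 92.4 with RSV+Vem, and 86.6 and 101 with RSV+TCDD. Vehicle was thus the highest group and Vem the lowest, both apart from the other 4, whose neighbors in rank overlapped. WWTR1 stood at 206 and 160 CPM with vehicle, 122 and 128 with Vem, 210 and 201 with TCDD, 168 and 177 with RSV, 153 and 158 with RSV+Vem, and 145 and 156 with RSV+TCDD. Vem was again the lowest group, RSV+TCDD and RSV+Vem overlapped above it, and RSV, vehicle and TCDD formed an overlapping upper series.

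Of the DNA-binding factors, TEAD1 was the most abundant of the 9 genes also per length, with 33.1 ± 4.88 CPM per kb of exon in vehicle (SD, n = 2), against 21.9 ± 3.89 for WWTR1, 17.4 ± 0.687 for YAP1 and 4.67 ± 0.494 for TEAD4. TEAD1 levels were 391 and 317 CPM with vehicle, 299 and 276 with Vem, 291 and 272 with TCDD, 224 and 311 with RSV, 229 and 279 with RSV+Vem, and 248 and 261 with RSV+TCDD. The vehicle libraries were above all others, and the 5 treated groups overlapped with their neighbors in rank. TEAD4 levels were 9.82 and 11.4 CPM with vehicle, 5.70 and 5.92 with Vem, 10.1 and 9.92 with TCDD, 9.04 and 6.88 with RSV, 6.60 and 7.08 with RSV+Vem, and 7.04 and 6.93 with RSV+TCDD. TEAD4 therefore fell into an upper pair (vehicle and TCDD), a middle series with RSV in each group, and Vem at the bottom.

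The targets varied more. CTGF and CYR61 encode secreted matricellular proteins that bind integrins. CTGF stood at 30.6 and 15.4 CPM with vehicle, 18.2 and 17.0 with Vem, 22.5 and 22.7 with TCDD, 43.2 and 35.4 with RSV, 40.1 and 35.5 with RSV+Vem, and 27.9 and 25.7 with RSV+TCDD. CYR61 stood at 44.3 and 16.3 CPM with vehicle, 17.9 and 14.7 with Vem, 9.70 and 10.4 with TCDD, 50.2 and 41.5 with RSV, 66.5 and 62.1 with RSV+Vem, and 25.5 and 23.7 with RSV+TCDD. For both genes the vehicle libraries disagreed more than the libraries of any other group, with replicate 1 the higher. The CYR61 vehicle range overlapped those of Vem, RSV+TCDD and RSV, whereas TCDD lay below every other library and RSV+Vem above every other. CTGF was highest in RSV and RSV+Vem, which overlapped each other and lay above the other 4 groups.

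AMOTL2 stood at 10.4 and 7.32 CPM with vehicle, 20.3 and 16.3 with Vem, 3.38 and 4.41 with TCDD, 22.3 and 16.8 with RSV, 52.1 and 40.4 with RSV+Vem, and 14.7 and 12.2 with RSV+TCDD. Only Vem and RSV overlapped as neighbors in rank, TCDD was lowest and RSV+Vem highest. ANKRD1, a nuclear ankyrin-repeat protein and a classical YAP target, was scarce, and its raw counts were 11 and 5 with vehicle, 1 and 1 with Vem, 0 and 0 with TCDD, 68 and 46 with RSV, 12 and 10 with RSV+Vem, and 29 and 35 with RSV+TCDD. In CPM it was 0.379 ± 0.251 with vehicle and 3.26 ± 1.19 with RSV (SD, n = 2). Its levels with vehicle, RSV, RSV+Vem and RSV+TCDD did not overlap one another. Those with Vem and TCDD, at 1 and 0 counts in each library, cannot be told apart at this depth. A count of 0 in both TCDD libraries allows a mean level of up to 0.178 CPM, taking 3 counts per library as the limit, which covers counting error only. THBS1, the gene of thrombospondin-1, had between 0 and 3 counts in every library, at or under that limit, so no fold was taken for it and it is listed here only as not detectable at this depth.

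**Figure D2:**
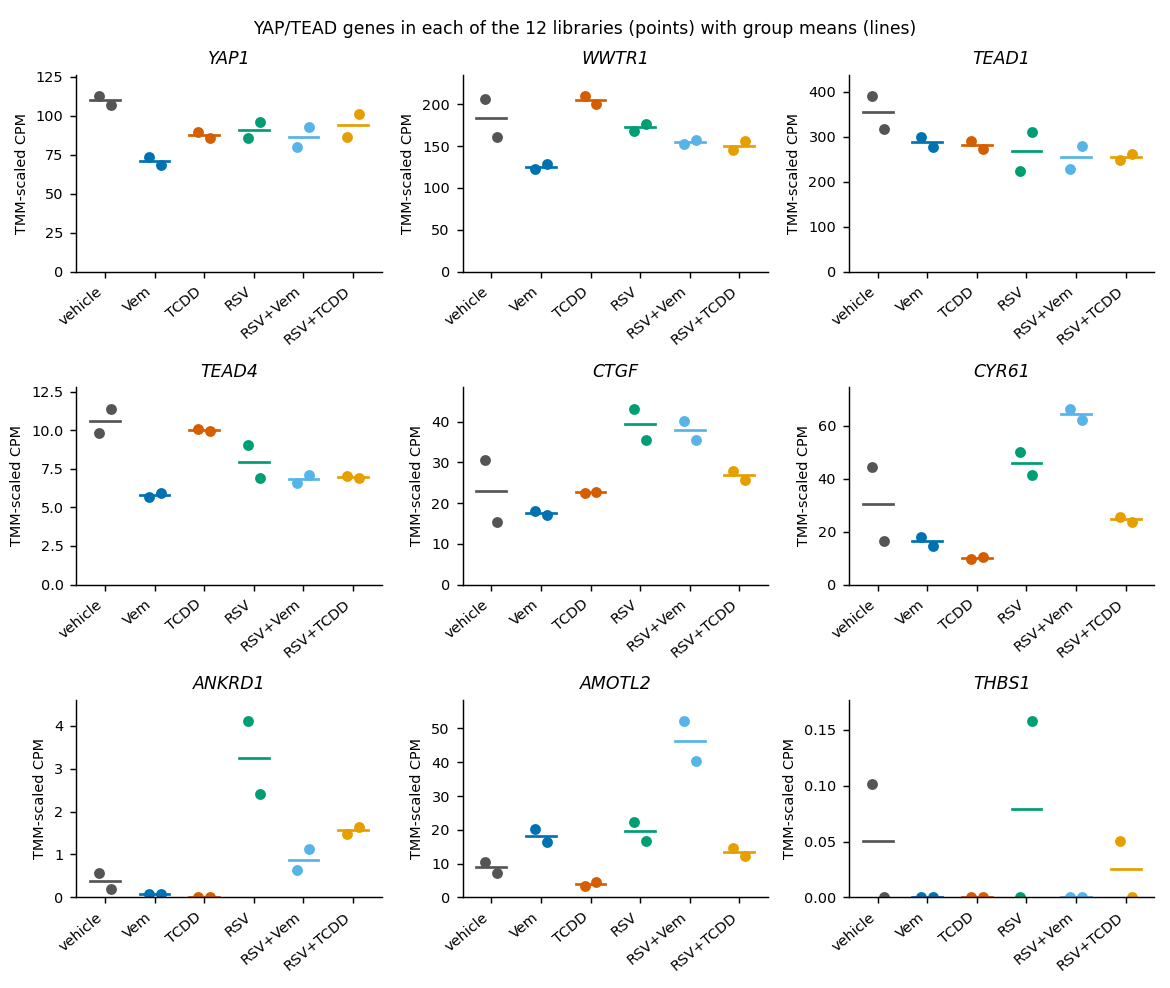
TMM-scaled CPM (y axis, from 0, a separate scale for each gene) of the 9 genes in each of the 12 libraries, with points for libraries and lines for the means of the 6 groups of 2. YAP1, WWTR1 and TEAD4 are lowest with Vem, CYR61 and AMOTL2 lowest with TCDD and highest with RSV+Vem, and ANKRD1 highest with RSV.

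Vem was compared with vehicle to ask how it changes expression. Its actions through BRAF and through AhR cannot be told apart in this comparison. YAP1, WWTR1, TEAD4 and CYR61 fell with Vem, and AMOTL2 rose. Tested with edgeR's quasi-likelihood F test over all genes, with Benjamini-Hochberg adjustment and calls at an adjusted p below 0.05, 5 of the 8 tested genes were called, against 52.4% of all tested genes. The 4 lower ones stand against 27.0% of all genes called lower. The 5 of 8 are near the background. The median log2 fold change of the 8 was -0.59, against -0.03 over all genes.

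TEAD4 changed by -0.87 ± 0.17 on the log2 scale with Vem (SE, adjusted p = 0.000407), from a mean of 10.6 to 5.81 CPM. YAP1 changed by -0.63 ± 0.11 (adjusted p = 0.000125) and WWTR1 by -0.55 ± 0.11 (adjusted p = 0.000403). These 3 calls held when any 1 library was left out, though WWTR1 was -0.36 without vehicle replicate 1. TEAD1 was -0.30 ± 0.14 (adjusted p = 0.0776) and did not pass, though it was called without vehicle replicate 2 (-0.42), RSV replicate 1 or RSV replicate 2 (-0.30 each), and stood at -0.14 without vehicle replicate 1. AMOTL2 rose by 1.06 ± 0.20 (adjusted p = 0.000383), a 2.08-fold difference, and stayed called without any 1 library. Relative to the ERCC spike-ins it was 0.40 (adjusted p = 0.540), where 23.4% of all genes were called and the median of all genes was -0.68.

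CYR61 changed by -0.88 ± 0.30 with Vem (adjusted p = 0.0201), but its groups overlapped and the call rested on vehicle replicate 1. Without that library the value was 0.0027 (adjusted p = 0.993), and it was -1.42 without vehicle replicate 2. It also missed the threshold without Vem replicate 1 (adjusted p = 0.0542), without Vem replicate 2 (adjusted p = 0.142) and with DESeq2 (adjusted p = 0.0804). CTGF was -0.38 ± 0.22 (adjusted p = 0.168), but it was called at -0.78 without vehicle replicate 2 (adjusted p = 0.000467) and stood at 0.19 without vehicle replicate 1. ANKRD1 had 2 counts with Vem and 16 with vehicle in all, a ratio of 0.203 after scaling, with a 95% counting interval from 0.0226 to 0.863, and did not pass the test across libraries (adjusted p = 0.0657), except without vehicle replicate 2.

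TCDD was compared with vehicle to ask how a canonical AhR ligand changes expression. CYR61, AMOTL2 and ANKRD1 fell with TCDD, and no coactivator or TEAD gene passed. The test called 3 of the 8, all lower, where 6.41% of all genes were called and 1.90% were called lower. Each of the 3 is a target gene.

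CYR61 changed by -1.58 ± 0.31 (adjusted p = 0.00524), a 2.99-fold lower level, from 30.3 to 10.1 CPM. Without vehicle replicate 1 the change was -0.70 (adjusted p = 0.0231), and without TCDD replicate 1 it missed the threshold (-1.53, adjusted p = 0.0731). AMOTL2 changed by -1.20 ± 0.24 (adjusted p = 0.00597), a 2.30-fold lower level, which also missed the threshold without TCDD replicate 1 (-0.998, adjusted p = 0.127). ANKRD1 was at least 2.13-fold lower with TCDD, taking 3 counts per library as the limit of its 0 counts, with an adjusted p of 0.0300. That call was lost without vehicle replicate 1 (adjusted p = 0.122), without TCDD replicate 1 (adjusted p = 0.226) and without TCDD replicate 2 (adjusted p = 0.127). Leaving out TCDD replicate 1 thus ended all 3 calls, in a fit that called 270 genes of all tested in place of 1030.

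CTGF was at -0.01 ± 0.21 with TCDD (adjusted p = 0.983), with a 95% interval from -0.47 to 0.44, and its sign turned on the vehicle libraries, at -0.44 without replicate 2 and 0.56 without replicate 1. YAP1 was -0.33 ± 0.11 (adjusted p = 0.0805) and TEAD1 was -0.33 ± 0.14 (adjusted p = 0.168), and neither passed. WWTR1 was 0.17 ± 0.11 and TEAD4 was -0.09 ± 0.16. In these libraries the markers of other cell types had their highest sum, most of it from LUM. The 2 of them that were tested went opposite ways, at log2 values of 1.47 (called) and -0.93 (not called). Melanocytic markers summed to 26251 and 27187 CPM against 19378 and 20476 with vehicle. Scaled to the spike-ins, CYR61 was still called (-2.10, adjusted p = 0.0187) and AMOTL2 was not (-1.71, adjusted p = 0.156), where the median of all genes was -0.51. This scaling called only 0.0622% of all genes with TCDD.

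RSV alone was compared with vehicle. CTGF, ANKRD1 and AMOTL2 rose and TEAD1 and TEAD4 fell. The test called 5 of the 8, against 40.9% of all genes, with 3 higher against 20.5% and 2 lower against 20.4%. ANKRD1 rose by 3.13 ± 0.43 (adjusted p = 5.74e-05), an 8.76-fold difference, and AMOTL2 by 1.14 ± 0.20 (adjusted p = 0.000320), a 2.21-fold difference. Both stayed called without any 1 library, with ANKRD1 at 2.52 without vehicle replicate 2 and 3.95 without vehicle replicate 1. CTGF rose by 0.78 ± 0.21 (adjusted p = 0.00708), but its size depended on the vehicle libraries: 0.36 (adjusted p = 0.0682) without replicate 2 and 1.35 without replicate 1. It also missed the threshold without RSV replicate 1 (adjusted p = 0.0628).

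CYR61 was 0.61 ± 0.28 with RSV (adjusted p = 0.0895) and did not pass, with values from 0.05 without vehicle replicate 2 to 1.49 without vehicle replicate 1, of which the second was called. YAP1 was -0.27 ± 0.11 (adjusted p = 0.0509) and was called in 5 of the 12 fits that left out a library, among them -0.36 without RSV replicate 2. TEAD1 changed by -0.40 ± 0.14 (adjusted p = 0.0265), which was lost without vehicle replicate 1 (adjusted p = 0.222) or RSV replicate 1 (adjusted p = 0.311). TEAD4 changed by -0.42 ± 0.16 (adjusted p = 0.0430), and 4 of the 12 fits that left out a library called it, while DESeq2 did not (adjusted p = 0.125). WWTR1 was -0.09 ± 0.11. All 7 melanocytic markers fell with RSV. On the spike-in scale only ANKRD1 of the 8 was called with RSV, where 2.33% of all genes were called and the median of all genes was -0.17.

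Adding RSV to Vem was tested against Vem alone, to ask what RSV changed in the presence of the BRAF inhibitor. CYR61, CTGF, AMOTL2, ANKRD1 and WWTR1 rose and no gene fell. The 5 called of 8 stand against 37.9% of all genes called and 19.2% called higher. CYR61 rose 3.94-fold (1.98 ± 0.30, adjusted p = 7.82e-05), AMOTL2 2.54-fold (1.34 ± 0.19, adjusted p = 4.57e-05) and CTGF 2.16-fold (1.11 ± 0.22, adjusted p = 0.000920). All 3 stayed called without any 1 library, and none of the 4 libraries compared was a vehicle library. Of the 3, CYR61 was also called on the spike-in scale, where 2.43% of all genes were called and the median of all genes was -0.02. ANKRD1 had 22 counts against 2, a scaled ratio of 10.9 with a 95% counting interval from 2.68 to 95.5 (adjusted p = 0.00677), and it missed the threshold without Vem replicate 1 (adjusted p = 0.0550). WWTR1 rose by 0.31 ± 0.11 (adjusted p = 0.0322), a call that was lost without any 1 of the 4 libraries compared (adjusted p from 0.0826 to 0.169). YAP1 was 0.28 ± 0.11 (adjusted p = 0.0573; called without RSV+Vem replicate 1 or RSV+TCDD replicate 1), TEAD4 0.23 ± 0.19 and TEAD1 -0.18 ± 0.14.

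Against RSV alone, RSV+Vem raised AMOTL2 and lowered ANKRD1. These are 2 of the 8, against 24.4% of all genes. AMOTL2 rose 2.39-fold (1.26 ± 0.19, adjusted p = 0.000182) and stayed called without any 1 library. ANKRD1 fell by 1.98 ± 0.42 on the log2 scale (adjusted p = 0.00314), 3.96-fold, from 114 counts in all to 22, and the call was lost without RSV+Vem replicate 1 (-1.52, adjusted p = 0.0885). CYR61 was 0.49 ± 0.27 (adjusted p = 0.205), with separate groups, and was called without vehicle replicate 1 or vehicle replicate 2, at values of 0.49 and 0.50. CTGF was -0.05 ± 0.21, with a 95% interval from -0.49 to 0.39. Scaled to the spike-ins, ANKRD1 stayed called and AMOTL2 did not (0.77, adjusted p = 0.345), where the median of all genes was -0.52. AMOTL2 was thus higher in RSV+Vem than in either single compound, while ANKRD1 lay between its levels with Vem and with RSV. RNA integrity was lowest in the RSV+Vem libraries, and its part in these differences was not tested.

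RSV+TCDD was tested against TCDD alone. By the name of the samples, the RSV+TCDD cultures received less TCDD than the TCDD cultures, and by the treatment protocol the same dose. If the name holds, dose and RSV cannot be told apart in this comparison, for these genes or for the other pathway genes below. AMOTL2, CYR61 and ANKRD1 rose and WWTR1 and TEAD4 fell. The 5 of 8 stand against 37.7% of all genes called, with 3 higher against 18.6% and 2 lower against 19.1%. AMOTL2 rose 3.52-fold (1.81 ± 0.23, adjusted p = 2.46e-05) and CYR61 2.45-fold (1.29 ± 0.31, adjusted p = 0.00368), and both stayed called without any 1 library. ANKRD1 was at least 8.76-fold higher (adjusted p = 5.79e-05), from 0 counts in both TCDD libraries to 29 and 35. CTGF was 0.24 ± 0.21 (adjusted p = 0.393). WWTR1 fell by 0.45 ± 0.11 (adjusted p = 0.00347). TEAD4 fell by 0.52 ± 0.16 (adjusted p = 0.0194), a call that was lost without any 1 of the 4 libraries compared (adjusted p from 0.0695 to 0.109) and with DESeq2 (adjusted p = 0.0598). Of the 5, only ANKRD1 was called on the spike-in scale, where 11.2% of all genes were called and the median of all genes was -0.70.

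Against RSV alone, RSV+TCDD gave no call among the 8, where 5.70% of all genes were called with edgeR. CYR61, ANKRD1, AMOTL2 and CTGF, 4 of the 8, were lower with an unadjusted edgeR p below 0.05. In either direction, 21.0% of all genes had such a p. CYR61 was -0.90 ± 0.28 (adjusted p = 0.0697), ANKRD1 -1.05 ± 0.35 (adjusted p = 0.0887), AMOTL2 -0.53 ± 0.19 (adjusted p = 0.117) and CTGF -0.55 ± 0.21 (adjusted p = 0.132). DESeq2 called 0 of them, and edgeR without the low-count filter called 4. Without vehicle replicate 1 or vehicle replicate 2, neither of them part of this comparison, CYR61 and CTGF were called. Scaled to the spike-ins, 7 of the 8 were called lower, all but YAP1, where 40.1% of all genes were called lower and their median was -1.02. YAP1 was 0.04 ± 0.11, TEAD1 -0.07 ± 0.14, WWTR1 -0.19 ± 0.11 and TEAD4 -0.18 ± 0.17 with TMM scaling.

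The interaction compares the effect of a ligand in the presence of RSV with its effect in vehicle. For Vem, YAP1 and CYR61 had a higher effect of Vem with RSV than without, 2 of the 8 called, against 22.7% of all genes called and 12.0% called higher. Vem changed CYR61 by -0.88 without RSV and by 0.49 with it, a difference of 1.37 ± 0.40 (adjusted p = 0.0225). Vem changed YAP1 by -0.63 without RSV and by -0.08 with it, a difference of 0.55 ± 0.15 (adjusted p = 0.0168). The CYR61 difference was 0.49 (adjusted p = 0.109) without vehicle replicate 1, and it was called in 7 of the 12 fits that left out a library. DESeq2 gave 1.35 for it (adjusted p = 0.0798). The YAP1 difference missed the threshold without Vem replicate 2 (adjusted p = 0.0737), RSV replicate 1 (adjusted p = 0.0639) or RSV+Vem replicate 2 (adjusted p = 0.0854). TEAD4 (0.65 ± 0.24, adjusted p = 0.0660) and WWTR1 (0.40 ± 0.15, adjusted p = 0.0682) did not pass, though TEAD4 was called without RSV replicate 1 (0.86) and WWTR1 and CTGF without vehicle replicate 2 (0.56 and 0.74). Neither difference was called on the spike-in scale, which called only 0.0373% of all genes for this interaction. For AMOTL2, which Vem changed by 1.06 without RSV and by 1.26 with it, the difference was 0.20 ± 0.28, with a 95% interval from -0.38 to 0.79.

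For TCDD, edgeR called none of the 8 for the interaction, where 0.124% of all genes were called. At an unadjusted p below 0.05, which 8.05% of all genes reached, there were 4, YAP1 (0.37 ± 0.15), WWTR1 (-0.36 ± 0.15), ANKRD1 and AMOTL2 (0.67 ± 0.31), and DESeq2 called 0. CYR61 was 0.69 ± 0.41 (adjusted p = 0.745), with a 95% interval from -0.19 to 1.56. It was called at 1.26 without vehicle replicate 2 and stood at -0.19 without vehicle replicate 1, and CTGF was called at -1.10 without vehicle replicate 1. TCDD changed CYR61 by -1.58 without RSV and by -0.90 with it, and AMOTL2 by -1.20 and -0.53, and these differences were not resolved. If the RSV+TCDD cultures received less TCDD than the TCDD cultures, as the name of the samples has it, dose and RSV cannot be told apart here.

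**Figure D3:**
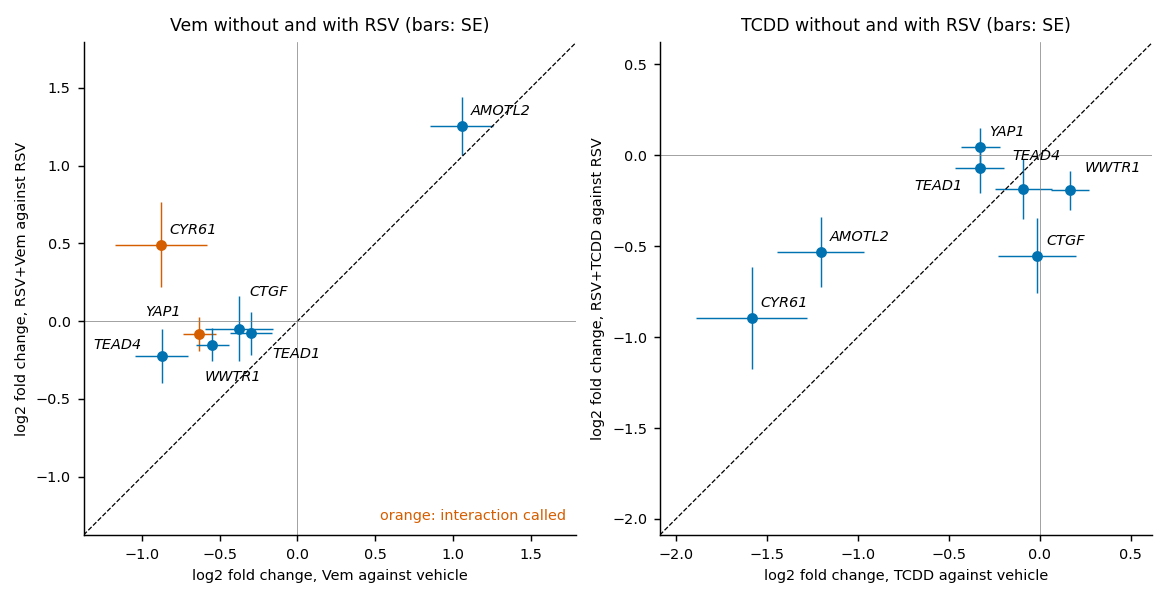
Log2 fold change of Vem (left) or TCDD (right) against vehicle on the x axis and of the same ligand with RSV against RSV on the y axis, for 7 genes, with bars for the SE from the edgeR fit and a dashed line of equality. ANKRD1 is left out because it had 0 or 1 count in each Vem and TCDD library, and the orange points, CYR61 and YAP1 with Vem, are the genes whose interaction was called.

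The wider pathway was read from 27 genes listed as Hippo regulators and from 18 further YAP/TEAD targets, with LATS2 and PTPN14 in both. The first list holds kinases, scaffolds, upstream inputs, YAP-binding inhibitors, and the other TEAD genes (TEAD2 and TEAD3) and VGLL genes. Of the regulators, 25 were tested, and 12 fell and 5 rose with Vem, where 27.0% of all genes were called lower and 25.4% higher, with a median of -0.38 against -0.03 over all genes. FRMD6, an upstream activator of the kinase cascade, stood at 51.1 and 54.0 CPM with vehicle and at 28.7 and 31.0 with Vem, a change of -0.82 ± 0.11 (adjusted p = 1.28e-05). SAV1, the scaffold of the STK3 and STK4 kinases, changed by -0.69 ± 0.12 (adjusted p = 0.000171). LATS2, a kinase that inhibits YAP and is itself a target, rose by 0.61 ± 0.11 (adjusted p = 0.000244), and LIMD1, an inhibitor of LATS kinases, by 0.61 ± 0.14 (adjusted p = 0.00145). With TCDD, where 1.90% of all genes were called lower, LATS1 alone passed (-0.50 ± 0.12, adjusted p = 0.0196), lower at 33.1 and 32.5 CPM against 48.4 and 44.3 with vehicle.

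With RSV, 6 regulators rose and 7 fell, where 20.5% of all genes were called higher and 20.4% lower. TEAD3, itself a TEAD gene, rose by 0.66 ± 0.14 (adjusted p = 0.00137), while TEAD1 and TEAD4 fell with RSV. RASSF1, a scaffold that binds the STK kinases, rose by 0.66 ± 0.20 (adjusted p = 0.0136). STK3 stood at 27.9 and 21.8 CPM with vehicle and at 11.7 in both RSV libraries, a change of -1.08 ± 0.14 (adjusted p = 2.91e-05), and FAT4, an atypical cadherin upstream of the pathway, changed by -0.86 ± 0.14 (adjusted p = 0.000236). In RSV+Vem against Vem, 5 rose and 5 fell (19.2% and 18.7% of all genes), led by RASSF1 (1.29 ± 0.21) and SAV1 (0.97 ± 0.12) among the higher and by FAT4 (-0.83 ± 0.15) and NF2 (-0.46 ± 0.10) among the lower. In RSV+Vem against RSV, LATS2 rose by 0.55 ± 0.11 and AMOTL1 (-0.72 ± 0.09), FRMD6 (-0.60 ± 0.11) and FAT1 (-0.59 ± 0.12) fell (11.2% of all genes called higher and 13.1% lower). In RSV+TCDD against TCDD, 6 rose and 5 fell (18.6% and 19.1% of all genes), with RASSF1 at 0.88 ± 0.20, TEAD3 at 0.52 ± 0.14, FAT4 at -1.13 ± 0.15 and STK3 at -0.80 ± 0.14. FAT4 alone passed in RSV+TCDD against RSV (-0.57 ± 0.16, adjusted p = 0.0430), where 2.08% of all genes were called lower. The Vem interaction was called for 3 higher and 1 lower (12.0% and 10.7% of all genes), among them STK3 (0.77 ± 0.21), LATS1 (0.66 ± 0.17) and NF2 (-0.61 ± 0.14), and the TCDD interaction for none of the 25.

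The other targets did not move as a block. Of 15 tested, 3 rose and 6 fell with Vem, beside 25.4% and 27.0% of all genes. TGFB2, a secreted growth factor, stood at 17.8 and 9.59 CPM with vehicle and at 71.1 and 83.5 with Vem, a change of 2.51 ± 0.28 (adjusted p = 1.46e-06). F3, the gene of tissue factor, stood at 3.54 and 3.76 CPM with vehicle and at 0.765 and 1.31 with Vem, a change of -1.83 ± 0.27 (adjusted p = 3.07e-05). DOCK5 changed by -0.69 ± 0.17 (adjusted p = 0.00211). With TCDD, MYOF (-1.55 ± 0.35, adjusted p = 0.0132) and FOXF2 (-1.13 ± 0.25, adjusted p = 0.0138) fell and none rose, beside 1.90% of all genes called lower. MYOF, like CTGF and CYR61, differed between the vehicle libraries, at 3.44 and 1.94 CPM, against 0.812 and 1.03 with TCDD.

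With RSV, 3 targets rose and 3 fell, beside 20.5% and 20.4% of all genes. GADD45A, a stress-induced gene of growth arrest, stood at 33.4 and 23.2 CPM with vehicle and at 99.7 and 70.2 with RSV, a change of 1.59 ± 0.17 (adjusted p = 3.17e-06). NUAK2, a kinase, rose by 1.54 ± 0.29 (adjusted p = 0.000643), while PTPN14, a phosphatase that binds YAP, changed by -0.79 ± 0.13 (adjusted p = 0.000196) and FJX1 by -0.74 ± 0.26 (adjusted p = 0.0348). GADD45A and NUAK2 were also called higher in RSV+Vem against Vem (1.76 ± 0.17 and 1.37 ± 0.28), where 5 rose and 4 fell (19.2% and 18.7% of all genes), with TGFB2 at -1.32 ± 0.27. Both were called in RSV+TCDD against TCDD too (1.45 ± 0.17 and 1.92 ± 0.30), where 3 rose and PTPN14 alone fell (-0.69 ± 0.13), beside 18.6% and 19.1% of all genes. In RSV+Vem against RSV, 3 rose and 4 fell (11.2% and 13.1% of all genes), led by TGFB2 (1.28 ± 0.29) and MYOF (-1.57 ± 0.30). In RSV+TCDD against RSV, FOXF2 (-1.58 ± 0.24) and MYOF (-1.36 ± 0.28) fell, beside 2.08% of all genes. The Vem interaction was called for F3 and RBMS3 (higher) and for MYOF and TGFB2 (lower), beside 12.0% and 10.7% of all genes, and the TCDD interaction for none. AXL, IGFBP3 and NT5E had at most 3 counts in any library and were not tested.

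**Figure D4:**
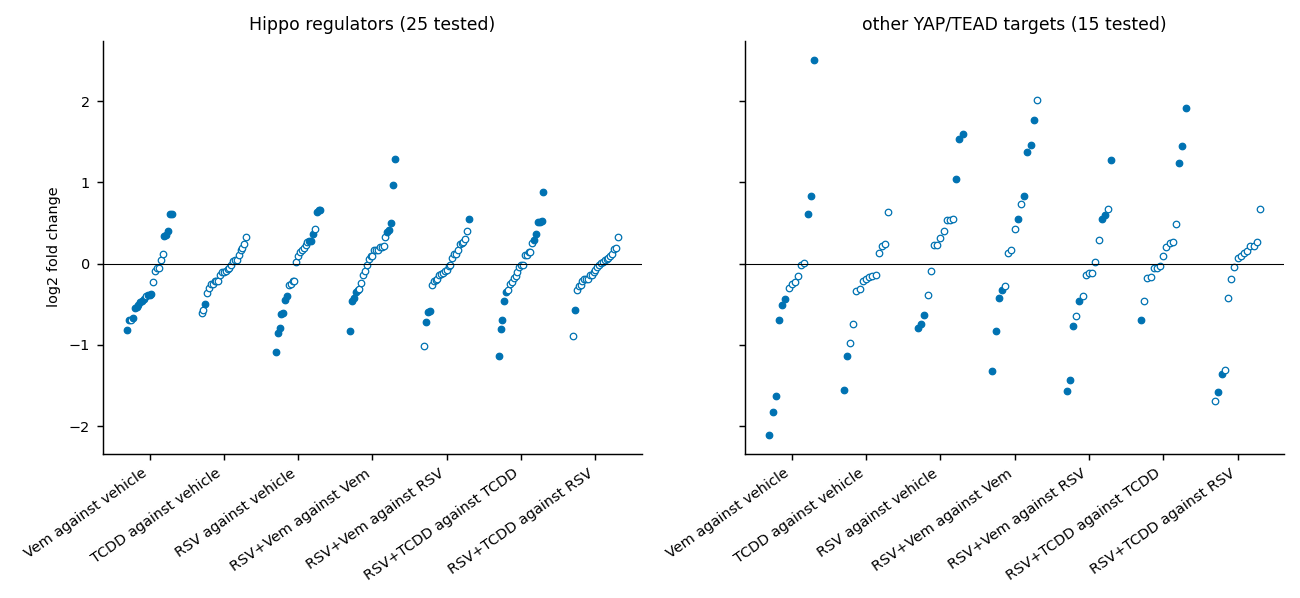
Log2 fold changes (y axis) of the 25 tested Hippo regulators (left) and the 15 tested other YAP/TEAD targets (right) in 7 comparisons, 1 point a gene, sorted within each comparison and filled where called. Points lie on both sides of 0 in every comparison, and with Vem 12 regulators are called lower and 5 higher.

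Likeness between genes was measured as the root mean square difference of their log2 group means over the 6 groups after centering each gene on its own mean. Among the 9 genes themselves, WWTR1 and TEAD4 were most alike (0.128), followed by YAP1 and WWTR1 (0.177). Among all other tested genes that averaged at least 50 counts over the libraries, the nearest to TEAD4 was USP53 (0.0299), to YAP1 ITSN2 (0.0363), to TEAD1 QTRTD1 (0.0484), to WWTR1 CKAP5 (0.0526) and to CTGF CTSV (0.0729). For the strongly varying targets, the nearest to CYR61 was KLF2 (0.192), to AMOTL2 RP4-756G23.5 (0.242) and to ANKRD1 SERPINB8 (0.532). Their larger distances go with their larger spread, since the measure grows with it. The root mean square of the centered means was 0.881 for CYR61, 1.08 for AMOTL2 and 1.70 for ANKRD1, against 0.187 for YAP1. These values describe 6 group means and come with no test.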

How the data were processed

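The authors prepared stranded mRNA libraries from total RNA, sequenced read pairs, aligned them with STAR 2.4.0a to hg19 (GRCh37) and counted primary alignments per gene symbol with featureCounts (Subread 1.5.0-p3). The deposited table holds the raw counts and no normalized values. The annotation release is not given in the sources used here, so positions and exon lengths are from GENCODE on GRCh37. Reads were counted per symbol and by strand, and PCR copies were not marked, so intervals and limits from counts cover counting error only.

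The 96 control rows, 92 of them ERCC spike-ins and between 0.0310% and 0.0936% of the counts of a library, were left out of library sizes and tests. Genes were kept with filterByExpr, scaled with TMM factors between 0.890 and 1.08, and fitted with edgeR 4.0.16 in R 4.3.3, 1 term per group over all 12 libraries. Comparisons were made with the quasi-likelihood F test, p-values were adjusted by Benjamini-Hochberg across 16080 tested genes, and the threshold for a call was an adjusted p of 0.05. SE is the absolute log2 fold change divided by the root of F, and 95% intervals use the total degrees of freedom. The common biological coefficient of variation was 0.0915. An exact permutation test of 1 gene cannot reach the threshold at 2 against 2 libraries. A level of 3 counts or fewer in both libraries of a group was taken as near 0. The test follows the threshold of the study, whose own tool, DESeq2 1.42.0, was run as an alternative, beside RLE factors, spike-in scaling, no low-count filter, a minimum of 10 counts in every library, a block for the replicate number, the compared libraries alone and leaving out each library.

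All 9 genes are named in every comparison. Of the pathway lists, the text names for each comparison up to 2 of the largest increases and decreases that were called, had separate groups (no such condition for interactions) and averaged 50 counts or more in the higher group. AXL, IGFBP3, NT5E and FAT1 were named after their values were seen. Markers, lists and the 9 genes were chosen from general knowledge with earlier results of these data known, so none was fixed without sight of them. The fit was tested on simulated data for Vem against vehicle, 15713 genes with 200 changed by a log2 value of 1, of which edgeR called 180, with 9 unchanged genes, and DESeq2 176, with 9. The data differ from this setting, since 52.4% of genes were called in them. The simulation also gave each gene the same dispersion in all groups, while replicate noise differed between the groups of the data. Promoter sequences are from RefSeq, and matplotlib 3.10.9 (Python 3.11.15) drew the figures.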

Additional observations from a re-analysis of the deposited data

Results flagged for a closer look

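The effect of Vem on CYR61 differed between cells with and without RSV by 1.37 on the log2 scale, by the edgeR interaction test (adjusted p = 0.0225). CYR61 was lower with Vem than with vehicle on average and higher with RSV+Vem than with RSV, in both RSV+Vem libraries. The vehicle libraries stood at 44.3 and 16.3 CPM, and without the higher one the difference was 0.49 (adjusted p = 0.109).

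The effect of Vem on YAP1 differed in the same way by 0.55 (adjusted p = 0.0168). Both Vem libraries were below both vehicle libraries, and the RSV+Vem and RSV libraries overlapped. Here the vehicle libraries were close, at 113 and 107 CPM. The difference ran from 0.44 without RSV+Vem replicate 2 to 0.65 without RSV+Vem replicate 1. As given above, the call was lost without some libraries of other groups and was not made on the spike-in scale.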

How the results depend on the processing

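Of 1353 values of the 8 tested genes under the alternatives, 1236 kept their direction and their side of the threshold or were called under neither setting, 63 lost a call, 53 gained one and 1 turned: CYR61 in Vem against vehicle, 0.0027 without vehicle replicate 1 (lowest value over the libraries left out, -1.42). Of the first, 33 changed sign while called under neither. DESeq2 gave no adjusted p for 4 values, all of ANKRD1. RLE factors changed no count of called genes by more than 1.5 times.

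Spike-in scaling called 1 gene in TCDD against vehicle, 1 in RSV against vehicle, 2 in RSV+Vem against Vem, 1 in RSV+Vem against RSV, 1 in RSV+TCDD against TCDD, 7 in RSV+TCDD against RSV and 0 for the Vem interaction, where it called between 0.0373% (Vem interaction) and 40.1% (RSV+TCDD against RSV) of all genes. Its median shifts of all genes stand beside the results, apart from 0.15 for the Vem interaction and -0.52 for the TCDD interaction. Control rows held 0.0389% and 0.0903% of the counts of the 2 RSV+Vem libraries, so this scaling set those libraries apart, with YAP1 at 105 and 52.2 CPM. In comparisons with RSV+Vem, a call missed on this scale therefore says little about a gene. Control shares also differed between the RSV+TCDD libraries (0.0630% and 0.0936%), on which the 7 calls against RSV rest. They were close between the vehicle libraries (0.0316% and 0.0310%) and between the Vem libraries (0.0442% and 0.0447%). Without the low-count filter, 8 genes were called in Vem against vehicle, 5 in TCDD against vehicle and 4 in RSV+TCDD against RSV. A minimum of 10 counts in every library, which removes ANKRD1, left 3 in RSV against vehicle and 1 in RSV+Vem against RSV. With the compared libraries alone, 3 were called in RSV against vehicle and 1 in RSV+TCDD against RSV. DESeq2 called 1 for the Vem interaction.

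Leaving out 1 library gave 4 to 8 calls in Vem against vehicle, 0 to 3 in TCDD against vehicle, 3 to 6 in RSV against vehicle, 3 to 6 in RSV+Vem against Vem, 1 to 3 in RSV+Vem against RSV, 4 to 5 in RSV+TCDD against TCDD, 0 to 2 in RSV+TCDD against RSV, 0 to 4 for the Vem interaction and 0 to 1 for the TCDD interaction. A group left with 1 library was assumed to vary like the others. Without vehicle replicate 2, 8 were called in Vem against vehicle, and without TCDD replicate 1, 0 in TCDD against vehicle. Other causes of these changes were not tested.

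Replicate numbers did not pair the samples: over 11955 genes, the replicate differences of 15 pairs of groups correlated from -0.37 to 0.43, above 0.1 in 6 pairs, among them the 3 pairs of RSV groups (0.31 to 0.43), and below -0.1 in 4. With the replicate number as a block, 2 genes were called in RSV+TCDD against RSV in place of 0, and 7 in RSV against vehicle in place of 5. The added calls were CYR61 and AMOTL2 in the first comparison, and CYR61 (0.67, adjusted p = 0.0334) and YAP1 (-0.27, adjusted p = 0.0465) in the second. No other call of the 8 genes changed under the block.

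The spread between libraries of a group exceeded counting noise: chi-square values per degree of freedom ran from 4.47 (TCDD) to 21.3 (vehicle). ANKRD1 and THBS1 are limited by depth.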
